A study of Mus musculus with 4 samples.

Results

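CpG cytosines whose methylation differed between the livers of the 2 inbred C57BL/6 mice are described here. A cytosine was taken as variable when it lay on an autosome, was present in all 4 files, was covered by at least 30 reads in both B6 mice, and differed by 30 percentage points or more between them. The members were thus chosen by their levels in B6-1 and B6-2, so that contrast is given as a description without a test. The rule found 2705 cytosines on 2698 CpGs, which is 0.257% of the 1053225 eligible cytosines. Of these, 1445 were higher in B6-2 and 1260 were higher in B6-1.

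The liver methylome was surveyed by enhanced reduced representation bisulfite sequencing (ERRBS), in which MspI cuts the DNA at CCGG, bisulfite turns unmethylated cytosines into T, and short reads from the fragment ends are counted. B6-1 and B6-2 are labelled Black-6, and Mixed-1 and Mixed-2 came from a mixed, undefined background that includes C57BL/6J and other strains. All were males between 6 and 8 weeks of age on a normal diet, and the mice of each background were kept at a different institution, so that background and housing cannot be told apart. The paper calls the B6 mice C57BL/6 in its methods and C57BL/6J in a legend. Whether the mice were littermates is not given in the sources used here. Each value comes from 1 whole liver, no mouse was measured again, and 5mC and 5hmC are not separated by bisulfite.

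Inbred mice carry nearly the same genome, so loci whose methylation differs between them are studied as candidate metastable epialleles. At such loci the methylation state is set by chance in the early embryo and is then held across the cells of the animal. The best known cases, agouti viable yellow and Axin1 fused, are driven by an inserted retrotransposon of the IAP class. Because a state is held along the DNA molecule and its copies, neighbouring CpGs of such a locus and both strands of a CpG usually carry it together.

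Members next to each other were joined into runs, in which neighbours of 1 direction lay at most 200 bp apart and at least 2 CpGs took part. The sequences of 7 of the runs with 4 or more member CpGs are shown because they are the stretches in which the B6 mice differed at several CpGs together. They are the plus strand of GRCm38 (mm10) from the RefSeq assembly, and the capitals mark the member CpGs. The run at Tmem267 is shown only around its first 4 member CpGs, at chr13:119487981-119488085. Each of the other sequences has 20 bp on both sides of the members. The others lie at chr14:8800344-8800434 (intergenic), chr11:121549850-121549940 (an intron of Tbcd), chr5:95974038-95974106 (an exon of Gm7993), chr11:35247225-35247302 (an intron of Slit3), chr13:46429204-46429287 (an exon of Rbm24) and chr8:119633188-119633347 (within Kcng4, in a promoter window of Gm46055).
Tmem267: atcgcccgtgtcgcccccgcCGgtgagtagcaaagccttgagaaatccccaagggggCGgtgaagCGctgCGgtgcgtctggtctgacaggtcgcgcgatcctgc
Chromosome 14 intergenic: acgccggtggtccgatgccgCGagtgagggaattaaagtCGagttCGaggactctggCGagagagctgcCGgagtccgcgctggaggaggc
Tbcd: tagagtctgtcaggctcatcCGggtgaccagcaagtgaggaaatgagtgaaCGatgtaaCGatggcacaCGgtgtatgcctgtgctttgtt
Gm7993: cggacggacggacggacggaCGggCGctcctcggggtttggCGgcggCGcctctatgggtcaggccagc
Slit3: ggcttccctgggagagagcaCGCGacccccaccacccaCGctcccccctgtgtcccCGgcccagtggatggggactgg
Rbm24: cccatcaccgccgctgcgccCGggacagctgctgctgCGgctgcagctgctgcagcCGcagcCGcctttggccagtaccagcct
Kcng4: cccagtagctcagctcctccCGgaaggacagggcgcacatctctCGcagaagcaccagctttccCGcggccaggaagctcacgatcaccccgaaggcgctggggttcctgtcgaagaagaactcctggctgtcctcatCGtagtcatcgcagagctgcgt
The site CCGG occurred in 6 of these 7 sequences. Over all members, 48.9% lay in a CCGG and 99.1% had one within 50 bp. Both shares were like those of the 124362 eligible cytosines with a B6 mean of 20% to 80%, called intermediate here, at 49.7% and 99.4%. Among all eligible cytosines 31.2% lay in a CCGG.

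The number of variable cytosines was far above what counting reads gives. If each cytosine had 1 level in both B6 mice, equal to its pooled level, binomial sampling at the observed coverage would put 158 cytosines 30 points apart, against 2705 observed, a ratio of 17.1. The ratio grew with the size of the difference. At 20 points or more 18566 cytosines were observed and 3191 expected, at 40 points or more 338 and 5.12, and at 50 points or more 30 and 0.0981. Binomial sampling treats each read as an independent molecule, which amplified reads without molecular identifiers are not, and duplicates could not be counted here.

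**Figure D1:**
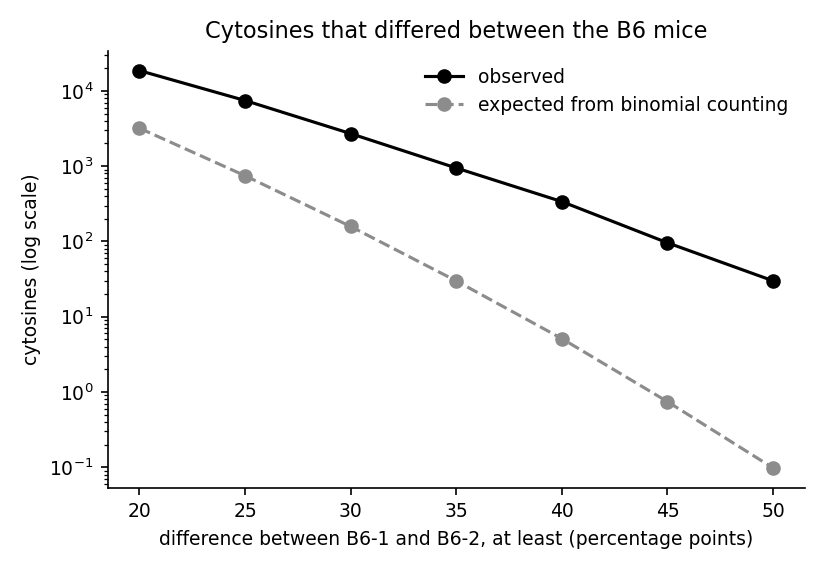
Number of eligible cytosines (log scale) that differed between B6-1 and B6-2 by at least the number of percentage points on the horizontal axis, with the number expected from binomial counting at the same coverage. The lines part as the difference grows, from 18566 against 3191 at 20 points to 30 against 0.0981 at 50 points.

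The excess was also seen at high coverage. Among intermediate cytosines covered by 30 to 40 reads in the thinner B6 mouse, 863 of 21665 were members, against 101 expected. Between 80 and 120 reads, 161 of 20697 were members, or 0.778%, against 0.255 expected. The members themselves were less covered than other intermediate cytosines, with a median of 52 reads against 65 in B6-1 and 51 against 63 in B6-2. At 30 reads a level of 50% has a 95% Wilson interval of 33.2% to 66.8%, and at 100 reads of 40.4% to 59.6%, for counting error only.

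Members were found where methylation was intermediate, as a difference of this size requires. They made up 2.94% of the cytosines with a B6 mean of 40% to 60% and 0.161% of those at 80% to 90%, and there was none among the 655169 cytosines under 5%. In 1124 members (41.6%) both mice were between 20% and 80%. Another 124 were below 20% in 1 mouse and at 50% or more in the other, and 0 were hypomethylated (<20%) in 1 mouse and hypermethylated (>80%) in the other. The median difference was 33.3 points and the largest 60.5. Just inside the threshold 293 cytosines differed by 30 to 30.5 points and just outside it 293 differed by 29.5 to 30 points, with median B6 means of 60.4% and 58.6%.

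Pairs of mice from any origin showed such differences. Over the 783411 eligible cytosines covered by 30 reads in all 4 mice, 1242 differed by 30 points between the B6 mice, 1867 between the Mixed mice, and 1681 to 2406 between a B6 and a Mixed mouse. The numbers over expectation were 18.8 for the B6 pair, 11.0 for the Mixed pair and 18.6 to 23.6 for the mice of different backgrounds. The expected number was 66.1 in the B6 pair and 170 in the Mixed pair, whose mice were covered by fewer reads. Because this ratio rises with coverage, it does not rank the pairs by their excess. Differences of 50 points set the pairs further apart, with 7 cytosines in the B6 pair, 354 in the Mixed pair and 218 to 344 across backgrounds. A T in the DNA of a mouse is counted like an unmethylated cytosine. The part of such sequence differences in the Mixed mice was not tested.

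Neighbouring cytosines in the same reads moved with the members, and those in other reads hardly did. An eligible neighbour on the same strand at 1 to 9 bp differed by a median of 14.6 points in the member's direction, and 84.5% of such neighbours had its direction. At 25 to 49 bp the median was 8.11 points. Beyond the read length of 50 cycles it was 1.94 points at 50 to 99 bp and 0.972 at 100 to 199 bp. On the other strand it was 1.56 points or less at every distance up to 999 bp.

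**Figure D2:**
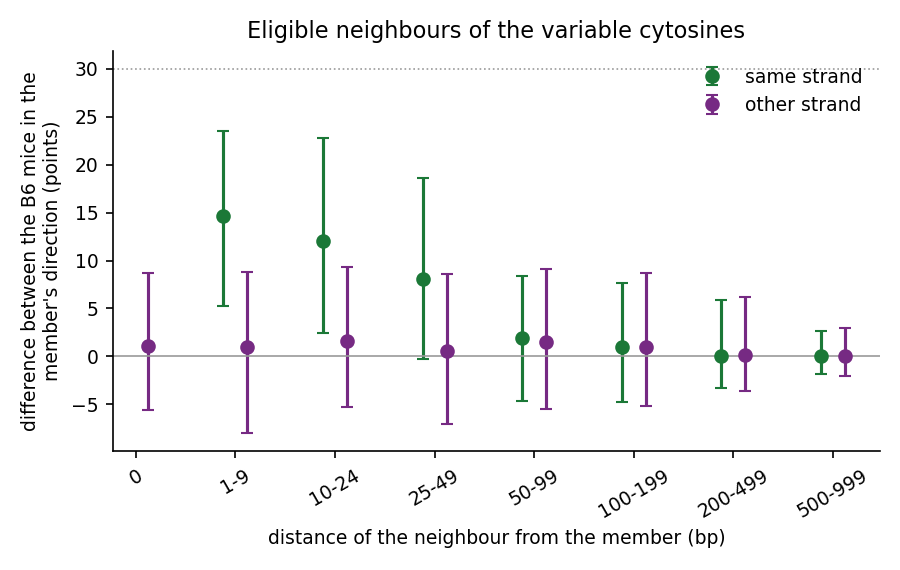
Difference between the B6 mice at eligible neighbours of the members, counted as positive in the member's direction (points), against the distance from the member (bp), for the same and the other strand. Points are medians and bars the quartiles; the dotted line marks the 30 points of the rule. On the same strand the median is 14.6 points at 1 to 9 bp and 1.94 at 50 to 99 bp, while the other strand stays near 0.

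The cytosine across the CpG gave the same picture. Of 166017 CpGs eligible on both strands, 472 had a member, and the other strand of these differed by a median of 1.03 points in the member's direction, with quartiles of -5.41 and 8.55. It had the same direction in 251 of 472, or 53.2%. Both strands passed 30 points in 7 CpGs, in the same direction in 4 and in opposite directions in 3. At Capn5 (chr7:98139379-98139380), a calpain gene, the forward strand was 42.7% in B6-1 and 75% in B6-2, while the reverse strand was 75.4% and 33.3%.

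Restricting the neighbours to intermediate cytosines, which have room to differ, changed little. For 1584 members there was an intermediate cytosine within 200 bp that could be read only from other reads, meaning the other strand or 50 bp or more away. Its median difference in the member's direction was 1.63 points, 339 members (21.4%) had 10 points or more and 210 (13.3%) had 10 points or more the opposite way. At 30 points the numbers were 16 and 6. In the same reads, by contrast, 979 of 1564 members (62.6%) had 10 points or more in their own direction and 76 the opposite way. Since cytosines of the same reads share their molecules, their agreement is not a second measurement.

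The 4 CpGs that differed on both strands in 1 direction were singled out after their values were seen. At Fut1 (chr7:45617633-45617634), a fucosyltransferase gene, the CpG lay 27 bp from an annotated start. Its forward strand was 57.4% in B6-1 and 22.2% in B6-2, and its reverse strand 56.8% and 19%, with the Mixed mice between 39.7% and 56.6%. In an intron of Twf2 (chr9:106212484-106212485), which encodes the actin-binding twinfilin-2, the forward strand was 16.0% and 50.8% and the reverse strand 21.6% and 55.3%. There the Mixed mice had 25% to 33.3%, between the B6 mice. In an intron of E230001N04Rik (chr17:28524100-28524101) the forward strand was 82.6% and 50% and the reverse strand 78.4% and 28.1%. In an exon of Gm38413 (chr5:99751327-99751328) the forward strand was 8.57% and 42.6% and the reverse strand 20% and 58.1%. These 4 CpGs were covered by 31 to 88 reads a strand in the B6 mice, and no soft-masked base was among them.

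In all, 423 members (15.6%) stood in 186 runs, 88 higher in B6-1 and 98 higher in B6-2. Most runs were short, with 151 of 2 CpGs and 35 of 3 or more. Of the 186, 144 lay on 1 strand within 50 bp, where 1 set of reads can cover the whole run, and 42 reached over 50 bp or onto the other strand. Consecutive members within 50 bp on the same strand agreed in direction in 193 of 194 pairs. On the same strand at 50 to 200 bp they agreed in 13 of 18, and on the other strand in 31 of 48.

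Other reads were at hand for 136 runs, and the cytosines in them differed by a median of 2.28 points in the run's direction. They had that direction in 85 of the 136, by 10 points or more in 15 and by 20 points or more in 3. In the Mixed mice the runs differed by a median of 8.45 points, and 7 of the 186 by 30 points or more.

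The run with the most CpGs held 9 member CpGs at chr13:119488001-119488229 on the forward strand, in a CpGi at the start of Tmem267, a transmembrane protein gene, and of the uncharacterised transcript 3110070M22Rik. Its mean level was 49.5% in B6-1, 13.1% in B6-2, 0.258% in Mixed-1 and 77.2% in Mixed-2. Hence 1 mouse was nearly unmethylated, another mostly methylated, and the B6 mice stood between them.

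**Figure D3:**
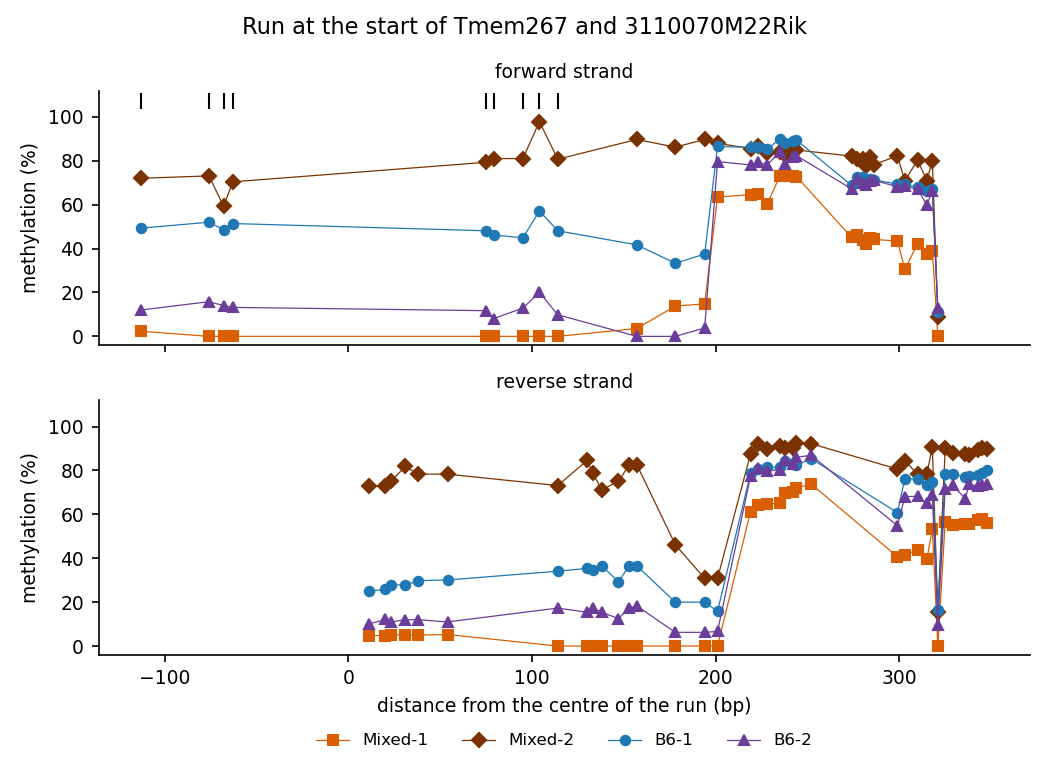
Methylation (%) of each cytosine around the run at Tmem267 and 3110070M22Rik in the 4 mice, by distance from the centre of the run (bp), with the forward strand above and the reverse strand below. Ticks mark the 9 members. Between the first member and 157 bp the Mixed-2 mouse is highest, B6-1 next, and B6-2 and Mixed-1 lowest on both strands.

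From the first member to 50 bp past the last, 23 cytosines on 21 CpGs were covered, and they fall into 4 groups that do not share reads. On the forward strand at chr13:119488001-119488051 the means were 50.3% in B6-1 and 13.8% in B6-2. On the reverse strand at chr13:119488125-119488168 they were 27.7% and 11.4%. On the forward strand at chr13:119488189-119488271 they were 47.7% and 10.4%, and on the reverse strand at chr13:119488228-119488271 they were 34.7% and 16.2%. All 4 groups thus had B6-1 above B6-2, by a smaller step on the reverse strand, where no cytosine reached 30 points.

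Mixed-1 had 0 to 5.26% at these 23 cytosines and Mixed-2 59.3% to 97.8%. B6-1 had 25% to 57.1% and B6-2 0 to 20%, so that only Mixed-1 and B6-2 overlapped. Mixed-1 was at 0 of 87 reads at several reverse cytosines, which allows a level of up to 3.45%. The Mixed mice took no part in choosing the run. Of its 9 members 4 were covered by 30 reads in both, and each was called between them, with adjusted p of 3.90e-16 or less by Fisher's exact test. These 4 lie in the same forward group and share reads, so they are not separate measurements. These tests count reads of 2 livers and compare those livers.

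The B6 mice were closer past the run, and coverage rose at the place where they came together. On the forward strand at chr13:119488308, B6-1 had 37.5% and B6-2 3.85%, at 24 and 26 reads. At chr13:119488315 on that strand they had 86.5% and 79.6%, at 245 and 216 reads. From 300 bp past the run the forward cytosines had means of 80.2% in B6-1, 78.1% in B6-2, 60% in Mixed-1 and 89.3% in Mixed-2, so the Mixed mice still differed there. Coverage at these cytosines was 1099 to 1116 reads in B6-1, 986 to 1002 in B6-2 and 337 to 348 in the Mixed mice, and the part of this depth in the levels was not tested. Before the run, 3 forward cytosines within 1000 bp had means of 83.2% and 73.4% in the B6 mice and 61.2% and 89.2% in the Mixed mice. Those 3 were covered by 52 to 84 reads in the B6 mice and 33 to 47 in the Mixed mice. The 31 bases around each member of the run occur once in the reference.

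Among the next runs, those within Kcng4 and Plekhh2 reached onto both strands. The run within Kcng4, a potassium channel subunit gene, had 4 CpGs with means of 66.8% in B6-1, 31.6% in B6-2, 28.7% in Mixed-1 and 35.3% in Mixed-2. B6-1 was high and the other 3 mice were alike. At 18 cytosines in other reads beside it, B6-1 had 56.8% and B6-2 43.6%, and the median difference of 15.5 points had the direction of the run. The run in an intron of Plekhh2 had 61.5% in B6-1, 93.1% in B6-2, 62.0% in Mixed-1 and 74.2% in Mixed-2, and no other reads lay near.

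A further 8 were each covered by single sets of reads. The intergenic run on chromosome 14 had 5 CpGs with 66.5% in B6-1, 26.7% in B6-2, 77.6% in Mixed-1 and 36.6% in Mixed-2. The mice there stood at 2 levels, 1 of each background at each, but Mixed-1 had only 16 to 17 reads and Mixed-2 25 to 26. The bases around its members occur up to 5 times in the reference and no other reads lay near. In an intron of Tbcd, a tubulin folding cofactor, the means were 35.1% and 77.1% in the B6 mice and 63.0% and 70.8% in the Mixed mice. Mixed-1 had 16 to 19 reads at Tbcd and Mixed-2 18. In an exon of Rbm24, an RNA-binding protein of muscle, they were 79.8% and 42.2%, and 31.7% and 70.6%. B6-1 and Mixed-2 were high and B6-2 and Mixed-1 low, although 1 cytosine in other reads there had -2.10 points in the run's direction. The Mixed levels at Rbm24 rest on 15 reads in Mixed-1 and 17 in Mixed-2.

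At Slit3, a guidance ligand, B6-1 had 36.9% and B6-2 74.0%, while 3 cytosines in other reads had a median of -7.11 points in its direction. At Gm7993 the means were 63.8% and 24.9%, and 6 cytosines in other reads had a median of -1.56 points in its direction. The bases around the members at Gm7993 occur up to 3 times in the reference. At Cyp4f17, a cytochrome P450 gene, they were 52.8% and 84.4%, with 9.36 points in the same direction at 5 cytosines. At Dusp3, a dual-specificity phosphatase, they were 47.8% and 95%, with 5.37 points at 4 cytosines. At Ppp2r2b, a regulatory subunit of protein phosphatase 2A, they were 42.3% and 82.4%, with 2.29 points at 2 cytosines. In the Mixed mice these 5 runs differed by between 1.68 and 23.5 points.

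**Figure D4:**
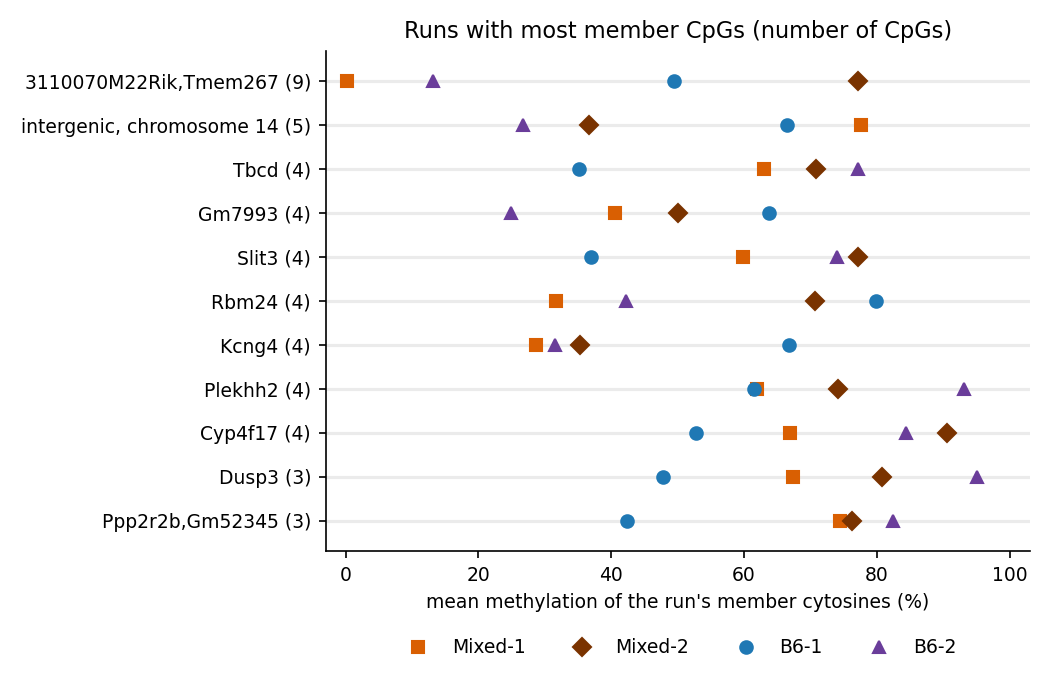
Mean methylation (%) of the member cytosines in 11 of the 12 runs with the most member CpGs (runs tied at 3 CpGs ordered by the larger median difference), for each of the 4 mice, with the number of CpGs beside the gene. B6-1 and B6-2 are apart in every run shown because the rule chose them so; the Mixed mice span 0.258% to 77.2% at Tmem267 and 74.5% to 76.2% at Ppp2r2b.

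Adjoining runs could differ in direction. In a CpGi at Dnajb3, inside several Ugt1a genes of glucuronidation, 5 members lay within 140 bp on the forward strand. The first at chr1:88205598-88205599 was 64.3% in B6-1 and 21.5% in B6-2. The last at chr1:88205737-88205738 was 18.6% in B6-1 and 63.3% in B6-2. The mice thus exchanged their order between these sets of reads, and the Mixed mice had 70.7% and 62.5% at the first and 37.5% and 40.6% at the last. This locus was chosen after its values were seen.

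Outside the 12 runs with the most CpGs, the 10 members with the largest difference were 53.4 to 60.5 points apart. The largest lay in an intron of Syt9, a synaptotagmin, at chr7:107517131-107517132. It was 94.9% in B6-1 (Wilson interval 83.1% to 98.6%) and 34.4% in B6-2 (20.4% to 51.7%), and 83.3% and 86.7% in the Mixed mice at 12 and 15 reads. B6-2 was low and the other 3 mice were high. No eligible neighbour could check it.

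Near Olfr951, an olfactory receptor gene, a reverse-strand cytosine at chr9:39396256-39396257 was 24.8% in B6-1 and 81.2% in B6-2. It stood in a run of 2 CpGs. Its intervals, 18% to 33.2% and 70.4% to 88.6%, rest on 121 and 69 reads. Beside it 7 cytosines in other reads differed by a median of 14.5 points in its direction. The Mixed mice lay between, at 49.3% and 34.5%. In introns of Wfdc1, Kcnma1 and Hspa12a, which encode a secreted WAP protein, the BK potassium channel and an Hsp70 relative, the B6 mice had 90% and 34.2%, 41.5% and 97.2%, and 37.8% and 93.2%.

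Others of this group lay near Fkbp6 and in Jag2, Golga3 and Sncaip. Beside Fkbp6, 15 cytosines in other reads differed by a median of 0.153 points, although the member was 7.32% in B6-1 and 62.5% in B6-2. Within Jag2, a Notch ligand gene, the member was 86.7% and 31.7%, with 6.99 points at 5 cytosines in other reads. The nearest annotated start there was that of Mir6941, 353 bp away. At Sncaip, which encodes synphilin-1, the member was 9.86% and 63.2%, with 16.1 points at 4 cytosines. It lay 312 bp from the start of Gm51263, the nearest one.

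The 5 promoter members with the largest difference were those at Jag2 and Sncaip and cytosines at Tuba4a, Npas1 and Zfhx2. At Tuba4a, an alpha-tubulin gene, B6-1 had 34.4% and B6-2 86.3%. At Npas1, a bHLH-PAS transcription factor gene, they had 10.5% and 61.6% while the Mixed mice had 93.3% and 100% at 15 and 13 reads. There 9 cytosines in other reads had a median of -0.509 points in the member's direction. At Zfhx2, a zinc finger homeobox gene, the other strand had -20.9 points in the member's direction, and the nearest start was that of Zfhx2os.

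The Mixed mice lay mostly between the B6 mice at the members. Both Mixed values were between the B6 values at 1880 members (69.5%), both above at 88 and both below at 41. The rule sets the B6 values at least 30 points apart, which leaves room for a middle level between them, and no background share was computed. The count includes 1463 members with under 30 reads in a Mixed mouse, down to 10. Where B6-1 was the higher mouse, the medians were 78.6% in B6-1, 43.6% in B6-2, 62.5% in Mixed-1 and 63.6% in Mixed-2. Where B6-2 was higher they were 40.9%, 76.1%, 61.4% and 63.3%. The Mixed medians were thus nearly the same whichever B6 mouse was high, and near the 62.7% and 63.6% of all intermediate cytosines.

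Whether the members also varied between the Mixed mice was asked with Fisher's exact test on each cytosine, which the rule did not use. Of the members, 1242 were covered by 30 reads in both Mixed mice and 1463 were not. By size alone, 31 of the 1242 (2.50%) differed by 30 points between Mixed-1 and Mixed-2. The background was 1.36% among the 79071 tested intermediate cytosines and 0.238% among all 783411. The number over binomial expectation was 8.82 for the members, 7.26 for the intermediate and 11.0 for all tested. The members' median difference was 7.89 points against 7.25.

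With an adjusted p below 0.05 and 30 points, 10 members (0.805%) were called, 8 higher in Mixed-2 and 2 higher in Mixed-1. The background was 0.455% of the intermediate cytosines (360) and 0.124% of all tested (975). Without the run at Tmem267, which gave 4 of the calls from shared reads, 6 of 1238 members (0.485%) were called and 2.18% differed by 30 points. Outside that run the share called, which rests on 6 calls, was close to that of intermediate cytosines. The share 30 points apart was 2.18% against 1.36%, but binomial counting alone also puts members apart more often. It gave 0.283% for all 1242 tested members and 0.188% for the tested intermediate cytosines. The members' ratio of 8.82 to expectation includes the run at Tmem267. Whether the members outside it exceed the intermediate cytosines beyond counting was not tested. The tested members had median coverages of 43 and 49 reads in Mixed-1 and Mixed-2, against 48 and 55 for the tested intermediate cytosines.

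**Figure D5:**
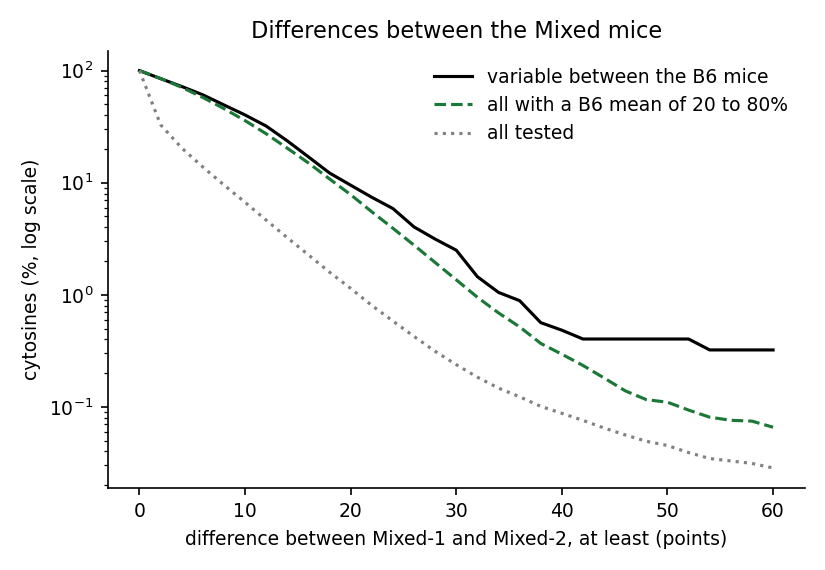
Percent of cytosines (log scale) that differed between Mixed-1 and Mixed-2 by at least the number of points on the horizontal axis, for the 1242 tested members, the 79071 tested intermediate cytosines and all 783411. At 30 points the lines stand at 2.50%, 1.36% and 0.238%.

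The other 6 called members were single cytosines, and the DNA sequence of the Mixed mice there was not tested. In an exon of Slc27a1, a fatty acid transporter, the levels were 100% in B6-1, 59.0% in B6-2, 2.33% in Mixed-1 and 56.1% in Mixed-2, with an adjusted p of 1.18e-05 between the Mixed mice by Fisher's exact test. Only B6-2 and Mixed-2 were alike there, and 3 cytosines in other reads differed by 20 points between the B6 mice in the member's direction. In an exon of L3mbtl1, a chromatin reader, the levels were 43.6% and 75.5% in the B6 mice and 72.7% and 31.6% in the Mixed mice (adjusted p = 6.39e-04, Fisher's exact test). The remaining 4 lay in Exoc3l2, Capn5 and Palb2 and near Pdcd6ip, with Mixed differences of 31.4 to 37.4 points. Of these, Exoc3l2 and Pdcd6ip had other reads that differed by less than 1 point between the B6 mice. The other strand at Capn5 went the opposite way between the B6 mice. Between the Mixed mice the forward and the reverse strand at Capn5 had the same direction, both higher in Mixed-2.

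The members fell in features in shares close to those of all intermediate cytosines, without a test. Promoters, taken as 1000 bp on each side of a start, held 14.1% of the members and 14.8% of the intermediate cytosines, introns 35.7% and 35.8%, and intergenic sequence 31.2% and 30%. CpGi held 8.69% and 8.66%, and the open sea 82.1% and 81.5%. Soft-masked bases, the repeats of the reference, held 8.13% and 8.31%. All eligible cytosines were placed differently, with 60.5% in promoters and 59.0% in CpGi. Of the members in runs 22.5% lay in CpGi. They had a median of 5 CpGs within 50 bp on either side, against 3 for all members, and a run by its definition needs CpGs close together.

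Members were 1.85% to 2.63% of the intermediate cytosines of each of the 19 autosomes, highest on chromosome 18. Copies of the surrounding 31 bases were found for 3.22% of the members and 2.99% of the intermediate cytosines. Reads that were neither C nor T were seen in a B6 mouse at 1.07% of the members and 1.29% of the intermediate cytosines.

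In or within 5000 bp of a gene lay 2094 members, at 2270 of the 31813 genes with an eligible cytosine. The most members, 9, fell to Tmem267, 3110070M22Rik and the neighbouring 4833420G17Rik, which share them. The predicted Gm37013, which spans the protocadherin clusters, also had 9 over 264 intermediate cytosines. Camta1, a long gene of a calmodulin-binding transcription activator, had 6, none of them in a run.

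Members at genes listed as hosts of metastable epialleles were too few to compare with other loci. Whether any of them lay at the epiallele itself was not examined. Members were 2.05% of all intermediate cytosines, and 7.14% of genes had one. Of 16 genes listed as hosts of metastable epialleles 15 had an eligible cytosine and 2 (13.3%) had a member. These were Snd1, a nuclease of RNA silencing complexes, with 2 members, and Rnf157 with 1 at the adjoining Foxj1. The Snd1 member at chr6:28832877-28832878 lay 1130 bp from the start of Lrrc4. Over the listed genes 3 of 138 intermediate cytosines (2.17%) were members. At Snd1 (chr6:28909907-28909908) the levels were 27.9% in B6-1, 70.2% in B6-2, 52.8% in Mixed-1 and 44.4% in Mixed-2, and other reads differed by 7.20 points in its direction. Neither Axin1 nor the agouti gene had a member. Whether these mice carry the inserted retrotransposons is not given in the sources used here, so nothing is read from that absence.

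Imprinted genes, where the parental copies differ in methylation and levels near the middle are usual, held 7 distinct members. These were 0.828% of their 845 intermediate cytosines, below the 2.05% of all. By gene the order was the opposite, as 9 of 37 listed genes with an eligible cytosine (24.3%) had a member, against 7.14% of all genes. The share by gene depends on how many intermediate cytosines a gene holds, and the list was not matched to all genes for that. Peg10 and Sgce also share 1 member, as do Nap1l5 and Herc3. Neither difference was tested. In the promoter CpGi of Gnas, the gene of a stimulatory G protein subunit, a member was 13.2% in B6-1 and 50.0% in B6-2, while 18 cytosines in other reads had a median of -1.06 points in its direction. At Peg10, a paternally expressed retrotransposon-derived gene, it was 17.9% and 51.3%, with 7.29 points at 7 cytosines. In Kcnq1 it was 30.6% and 62.9%, with 2.58 points at 1 cytosine.

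The clustered protocadherins, whose promoters are chosen stochastically in single cells, had 7 distinct members among 262 intermediate cytosines (2.67%). Their gene bodies overlap, so that 37 of 51 genes share these few. A member at the start of Pcdhga10 was 9.30% in B6-1 and 53.1% in B6-2, with 21.1% and 40.9% in the Mixed mice and 7.97 points at 1 cytosine in other reads.

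Cell type genes were looked at because 2 livers can differ in their cells. No member fell to 18 hepatocyte or 4 duct marker genes with an eligible cytosine, which held 110 and 25 intermediate cytosines. Of 18 leukocyte genes 1 had a member, Ptprc, which encodes CD45, with 35.6% in B6-1 and 77.5% in B6-2, and the 1 cytosine in other reads had -7.72 points in its direction. Of 12 endothelial and stellate genes Pdgfrb and Reln had 1 each. The leukocyte list held 105 intermediate cytosines and the endothelial and stellate list 118. Among all genes 7.14% had a member, and 2.05% of all intermediate cytosines were members. The counts of these lists are too small to compare with those shares. At the starts of marker genes, the median level of the 6 hepatocyte genes with a covered site was 14.9% in B6-1 and 16.0% in B6-2, that of 9 leukocyte genes 36.1% and 38.8%, that of 7 endothelial and stellate genes 8.45% and 10.2%, and that of 4 duct genes 3.70% and 2.01%. In the Mixed mice the hepatocyte starts had 12.2% and 12% and the leukocyte starts 45.5% and 52.5%. The part of cell makeup in the members' differences was not tested.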

How the data were processed

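CpG methylation was measured by ERRBS in the livers of 4 male mice, 2 of mixed background and 2 C57BL/6, each 1 replicate of its background. The labels gave the groups and the number of each mouse. The authors cut the DNA with MspI, sequenced single-end reads of 50 cycles and mapped them to mm10. The paper's methods name BSMAP as the mapper, whereas the submitters' processing notes name Bismark and SAMtools. The deposited files hold, for each cytosine and strand, the coverage as a count of reads with a minimum of 10, and the authors' percent of reads that were C or T. No normalization was applied and duplicates were not stated to be removed.

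Methylated reads were computed from percent and coverage. The reads over all sites numbered 60654199 and 65176203 in the Mixed mice and 99215153 and 91886997 in the B6 mice. The members and gene lists were chosen with earlier results of these data known. Genes named were the 12 runs with the most member CpGs (ties by the larger median difference), the 10 members and 5 promoter members of largest difference outside them, the genes with the most members, and members at listed genes, of which 1 run and 1 single member are not reported here. Named outside this rule, after their values were seen, were the CpGs that differed on both strands, the locus at Dnajb3 and the members called between the Mixed mice. The expected number was summed over sites from binomial distributions at the pooled level, and the Mixed mice were compared by two-sided Fisher's exact tests with Benjamini-Hochberg adjustment over 783411 sites. CpGi needed 200 bp, a GC content above 50% and a CpG ratio above 0.6 on repeat-masked sequence. Features came from RefSeq annotation of GRCm38. Scripts were tested on simulated data and used Python 3.11.15, numpy 2.4.6, pandas 2.3.3, numba 0.67.0, scipy 1.17.1 and matplotlib 3.10.9.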

Additional observations from a re-analysis of the deposited data

Results flagged for a closer look

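Cytosines outside the autosomes were not among the members, but 61 of 10745 eligible cytosines on chromosome X (0.568%) also differed by 30 points between the B6 mice, against 3.31 expected from counting. On chromosome Y it was 4 of 326, against 0.174 expected.

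Cytosines absent from a Mixed file were left out by the rule as well. Of 56434 such cytosines covered by 30 reads in both B6 mice, 570 (1.01%) differed by 30 points, against 38.8 expected.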

How the results depend on the processing

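With a coverage minimum of 20 reads the ratio of observed to expected was 8.97, with 291 runs and 22 members called between the Mixed mice. With 50 reads there were 1095 members, a ratio of 69.9 and 69 runs. At a difference of 25 points there were 7441 members, a ratio of 9.97, 626 runs and 23 called, and at 40 points 338, 66.0, 16 and 1. With the strands merged the ratio was 19 and there were 116 runs. Runs of at least 3 CpGs numbered 35. With 30 points and no test, 31 members differed between the Mixed mice. Chosen after seeing the data, counting only members whose other strand also differed by 30 points in the same direction left 8 cytosines of the CpGs eligible on both strands, and leaving out the run at Tmem267 left 6 called members. Without 1 Mixed mouse the number ranged from 2829 to 2997, the ratio from 17 to 17.1 and the runs from 196 to 209. The other alternatives run moved the counts by less than 1.5 times and left the ratio within its counting interval. Leaving out a B6 mouse gives no value, as the rule needs both. No paired analysis was possible because the comparisons set single mice of 1 background against each other. Depth limits single cytosines most, as 1463 members had under 30 reads in a Mixed mouse and 1121 members had no intermediate cytosine in other reads nearby.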
